A study of Mus musculus with 4 samples.

Results

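The genes described here encode the machinery between receptors and cyclic nucleotides in the CA1 field of the mouse hippocampus: G protein alpha, beta and gamma subunits, RGS proteins, adenylyl cyclases, cyclic nucleotide phosphodiesterases and the subunits of protein kinase A (PKA). Members were the probe sets whose single gene symbol in the platform's annotation began with Gna, Gnb1 to Gnb5, Gng with a digit or t, Rgs, Adcy or Pde with a digit, Prkar or Prkac. The rule used names only and no measured value. It found 92 probe sets for 64 genes, of 12422 probe sets in all. Of these genes 62 belong to the families, and 2 only share the name: Gnasas1 is an antisense RNA of the Gnas locus, and Pde4dip encodes an anchoring protein that binds a phosphodiesterase. The symbol of 1 further probe set named both Gng5 and its pseudogene, so it was not a member.

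RNA came from CA1 of young male C57BL/6J mice that experimenters had handled and not treated further. There were 4 arrays, each a group of its own, with extraction at 1, 2, 4 or 6 hr after other mice had received their last shock. The shocked mice themselves were not analysed here. How many mice an array pools, if any, is unknown. A value with SD and n = 4 is therefore taken over 4 arrays at 4 different times, not over replicates of 1 time, and time cannot be told apart from any other difference between these arrays.

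G protein coupled receptors act by loading GTP onto an alpha subunit, which then parts from its beta and gamma partners. Stimulatory alpha subunits activate adenylyl cyclases, inhibitory ones restrain them, and a further class activates phospholipase C. RGS proteins speed the hydrolysis of GTP and so end the signal, phosphodiesterases degrade cyclic AMP and cyclic GMP, and cyclic AMP releases the catalytic subunits of PKA from their regulatory subunits. In CA1 pyramidal neurons this cascade is known for its part in long-lasting synaptic plasticity.

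The deposited values are intensities, the brightness of a probe set after scaling, and they are linear. Brightness depends on how well each probe set hybridises as well as on the transcript, so the order of genes below is an order of intensities and not of RNA amounts. A floor was set at 54.7, the 25th percentile of all values, and values under it have no order. The median intensity of an array lay between 173 and 204, and 23.4% to 28.3% of its values were under the floor. The 5 CA1 pyramidal neuron markers measured, of 8 listed, were above the floor on all arrays, as were all 10 inhibitory neuron and 7 astrocyte markers and 6 of 7 oligodendrocyte markers. Markers of neighbouring regions also passed the floor on all arrays, 4 of 5 for dentate granule neurons, 4 of 5 for thalamus, 3 of 3 for striatum and 4 of 4 for choroid plexus, so passing it does not identify CA1. In such bulk samples fewer cells of a type and less RNA per cell cannot be told apart.

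Most member probe sets passed the floor on all arrays, as did most probe sets of any kind. Of the 92 member probe sets 64 (69.6%) were above the floor on all 4 arrays, where 61.4% of all probe sets were. Under it on every array were 9 of the 92, where 1433 of all 12422 were. Taking each gene by its brightest probe set, 48 of the 64 genes were above the floor on all arrays, 12 on some and 4 on none. All genes were not counted in this way, so the gene counts have no background. The 4 on none were Gna14, Gngt2, Rgs9 and Pde1c. The mean intensity was over 1000 for 20 genes and over 10000 for 4, namely Gnas, Gnao1, Gnai2 and Prkar1a.

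Among 14 alpha subunit genes Gnas was brightest, followed by Gnao1, Gnai2 and Gnai1. Gnas, which encodes the stimulatory subunit that activates adenylyl cyclase, read 42966, 39425, 35368 and 48869 in time order (1, 2, 4 and 6 hr), a mean of 41657 ± 5723 (SD, n = 4). It lay above all other members on each array. Gnao1, the Go subunit abundant in neurons, read 19197, 14942, 13516 and 18077 in time order. Gnai2, an inhibitory subunit, read 15662, 13703, 13649 and 14189. The ranges of Gnao1 and Gnai2 overlapped, and within an array their ratio ran from 0.99 to 1.27. The brightest Gnai2 probe set carries the f suffix, which on arrays of this maker marks probes that can bind several members of a gene family, so its level is uncertain. The f suffix also marks 1 probe set each of Gnao1, Gng11, Pde4dip, Pde6b, Rgs8 and Rgs10. The brightest probe sets of Gnas and Pde1a carry the s suffix, and that of Rgs19 the r suffix. Whether probe sets with a suffix read only 1 gene was not tested. The other Gnai2 probe sets averaged 4925 ± 779 and 1808 ± 653 (SD, n = 4).

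The other inhibitory subunits were dimmer. Gnai1 read 3024, 3892, 2941 and 2844 in time order, and Gnai3 read 1081, 1044, 1145 and 1305. Their ranges did not meet, so the order Gnai2, Gnai1, Gnai3 held on each of the 4 arrays, with Gnai2 between 3.52 and 5.18 times Gnai1 and Gnai1 between 2.18 and 3.73 times Gnai3. Through its dimmest probe set, at 2023, 1341, 1232 and 2635, Gnai2 lay below Gnai1 on each array. The other Gnai1 probe set, at 158 to 349, lay below Gnai3 on each array. Gnaz, the inhibitory subunit that resists pertussis toxin, read 112, 150.4, 20.1 and 122.

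Gna11, Gna12, Gna13 and Gnaq lay in the middle of the order, with Gnai3 between Gna11 and Gna12. Gna11, an activator of phospholipase C, averaged 1362 ± 187, and Gna12 and Gna13, which form a class of their own, averaged 1016 ± 177 and 512 ± 142 (SD, n = 4). Gnaq, the close relative of Gna11, read 246, 149, 174 and 239 in time order. Each Gnaq value was below each value of the brightest Gna11 probe set. The other Gna11 probe set, at 176 at 1 hr, lay below Gnaq there and above it on the other arrays. The remaining members of the phospholipase class, Gna14 and Gna15, and both transducins, Gnat1 of rods and Gnat2 of cones, were under the floor on 2 or more arrays. Of 8 pairs of neighbours in the order of alpha subunits with both genes above the floor on all arrays, 5 had ranges that did not meet and 3 overlapped.

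Beta subunits lay at 3 levels, with Gnb1 and Gnb2 highest, Gnb5 between and Gnb3 and Gnb4 lowest. Gnb1 read 4596, 5563, 5342 and 5303 at 1, 2, 4 and 6 hr, and Gnb2 read 4254, 4768, 4627 and 4509. By its brightest probe set Gnb1 was the higher on each array, by a ratio of 1.08 to 1.18, although their ranges over arrays overlapped. Through its other probe sets Gnb1 lay below Gnb2 on each array. Gnb5, the divergent beta subunit that partners RGS proteins in place of gamma subunits, read 689, 822, 846 and 584. Gnb3, known from cones, and Gnb4 were each above the floor on 2 of 4 arrays.

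**Figure D1:**
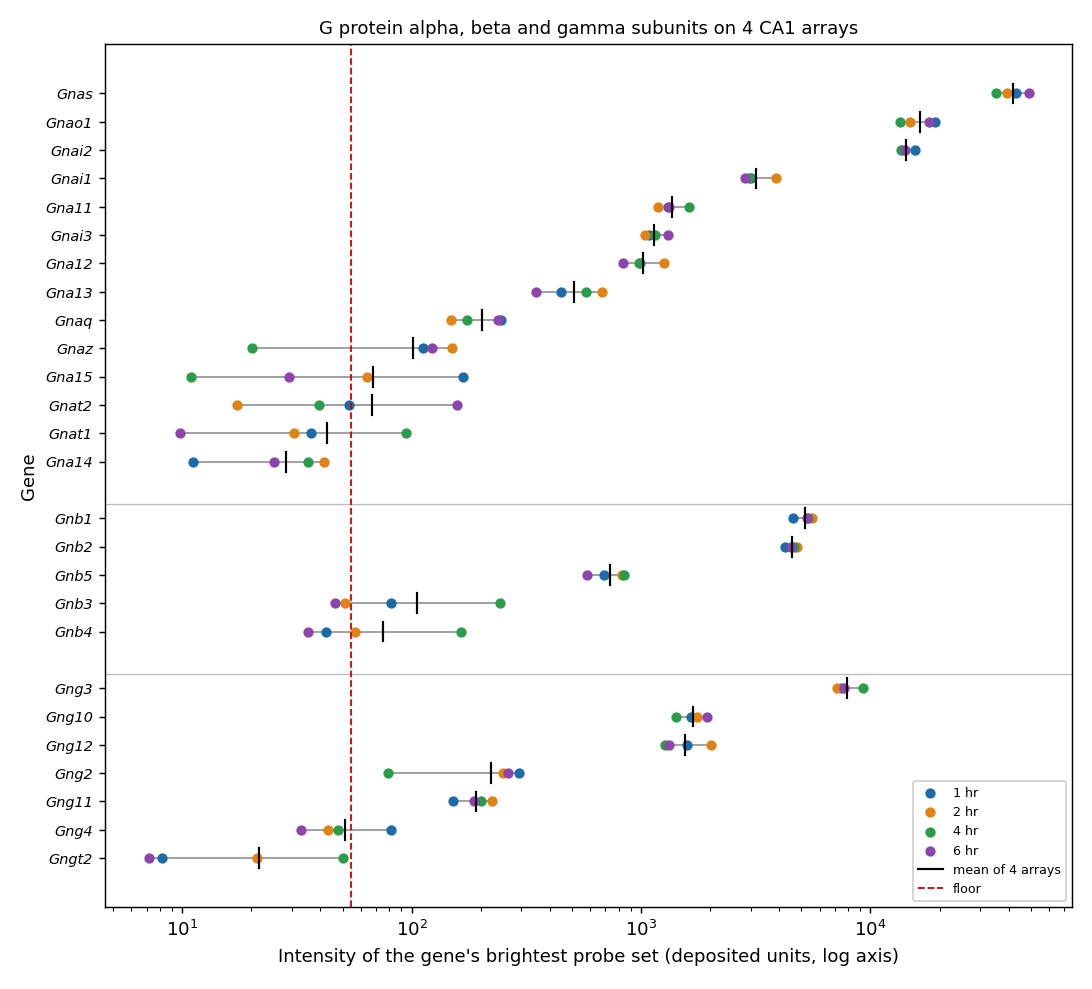
Intensity (deposited units, log axis) of the brightest probe set of each alpha, beta and gamma subunit gene, with 1 point for each of the 4 arrays, a grey line for their range, a black tick for the mean and a dashed line for the floor of 54.7. Gnas lies right of every other gene, from 35368 to 48869, and Gng3 lies right of every other gamma subunit gene.

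Gng3, a gamma subunit of neurons, was the brightest of its family. It read 7462, 7137, 9279 and 7696 in time order, between 3.95 and 6.54 times the next gene, Gng10. Gng10 and Gng12, both broadly expressed, read 1649, 1754, 1419 and 1947, and 1590.4, 2027, 1270 and 1320.2, with overlapping ranges. Gng2 read 295, 249.7, 79.2 and 262, and Gng11 averaged 191 ± 30.8 (SD, n = 4). Gng4 was above the floor on 1 array, and Gngt2, a cone subunit, on none. The probe set shared by Gng5 and its pseudogene read 3285, 3305, 2252 and 3182, which would put it between Gng3 and Gng10, but it cannot be assigned to either gene.

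Of 13 RGS genes, 1 stood far above the rest. Rgs14, a scaffold that also binds inhibitory alpha subunits and is best known in the hippocampus from CA2 pyramidal neurons, read 5683, 4462, 5872 and 5043 in time order. It lay between 5.35 and 8.09 times Rgs7 on each array. Rgs7, a partner of Gnb5, read 1030.1, 834, 726 and 780. Rgs3 read 967, 693, 752 and 785. The next genes formed a slope with few breaks: Rgs8, Rgs19, Rgs10 and Rgs16 averaged 716, 552, 530 and 475, and of 9 pairs of RGS neighbours above the floor on all arrays 6 had overlapping ranges. The brightest Rgs8 probe set, its only one, carries the f suffix.

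Rgs2, which acts mainly on Gq class subunits and is inducible in neurons, averaged 364 ± 22.6, and Rgs5, known from pericytes, 291 ± 1.26 (SD, n = 4). Rgs5 read 291.1, 292.3, 289.3 and 290.4, the narrowest range of any member tested. Its second probe set read 109, 15.7, 94.2 and 73.4, so the narrow range belongs to 1 probe set. The gene list for endothelial and mural cells, which contains Rgs5, summed to 1853 to 2347 on the 4 arrays. Of the RGS genes that pair with Gnb5, Rgs7 and Rgs11 were above the floor on all arrays, Rgs6 on 1 and Rgs9, known from striatum, on none. Rgs4, often cited as a cortical and hippocampal RGS gene, read 65.1 at 1 hr and lay under the floor on the other 3 arrays.

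Adenylyl cyclases were led by a pair. Adcy2, a cyclase stimulated by beta and gamma subunits together with the stimulatory alpha subunit, read 2034, 3226, 3310 and 3054 in time order. Adcy9, which responds weakly to forskolin, read 2285, 2272, 2161 and 2186. Adcy9 was the higher at 1 hr and Adcy2 on the other 3 arrays, so neither was brightest throughout. The second Adcy9 probe set averaged 1996 ± 120, close to the 2226 ± 61.9 of the first (SD, n = 4). Adcy3, the cyclase of olfactory and neuronal cilia, read 900.3, 581, 782 and 669, and Adcy6, which calcium inhibits, averaged 314 ± 45.4 (SD, n = 4). Adcy8, a cyclase stimulated by calcium and calmodulin, read 121, 485, 314 and 220, a 4.00-fold range. Adcy4 read 309, 111, 160 and 212, and Adcy7 was above the floor on 2 arrays. Adcy8 was lowest on the array where Adcy4 was highest, and the reverse held at 2 hr. Both were dim and each was seen through 1 probe set. Other pairs of cyclases were not compared in this way, so this has no background. Adcy1 and Adcy5 were not analysed here.

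Phosphodiesterases were the dimmest of the larger families, with no gene averaging over 1000 and a median of 161 over 11 genes. Pde1a and Pde1b, calcium and calmodulin stimulated enzymes for cyclic AMP and cyclic GMP, read 806, 1152, 596 and 928, and 904, 562, 846 and 514, in time order. They swapped places between arrays. Pde1b was higher at 1 and 4 hr and Pde1a at 2 and 6 hr, with a ratio of Pde1a to Pde1b from 0.70 to 2.05. The first Pde1a probe set carries the s suffix, and the second, 156, 248, 213 and 330, differed from the first in its order. Pde1c was under the floor on all arrays, below its relatives throughout. Pde6d, which despite its name carries prenylated proteins in many tissues, read 798, 935, 652 and 806.

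The enzymes specific for 1 cyclic nucleotide were dim. Pde4b, the cyclic AMP enzyme inhibited by rolipram and the only type 4 gene with a probe set here, read 360, 184, 234 and 237 in time order. Pde8a, specific for cyclic AMP, read 302, 221, 104 and 198, and Pde9a, specific for cyclic GMP, read 114, 167, 146 and 219. Pde7a averaged 88.7 ± 29.2 (SD, n = 4). The photoreceptor genes Pde6a, Pde6b and Pde6g averaged 140, 110 and 124, the Pde6b value from a probe set with the f suffix, and were above the floor on all arrays. The other Pde6b probe set read 24.1, 4.9, 7.0 and 14.2, under the floor throughout, and photoreceptor markers were low. Of 7 such markers 2, Crx and Pdc, were above the floor on all arrays, 2 were under it on all, and all 7 summed to 515 to 925. Of 9 pairs of neighbouring phosphodiesterases above the floor on all arrays 8 had overlapping ranges. The family also had the highest median SD, 0.41 log2 units over 8 probe sets, not matched for level.

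PKA subunits were bright, with the exception of Prkar2a. Prkar1a, the broadly expressed type I regulatory subunit, read 12908, 12354, 10070 and 11474 in time order. Prkar1b, the type I subunit of neurons, read 5204, 4499, 5860 and 4801, and the ratio of Prkar1a to Prkar1b within an array ran from 1.72 to 2.75. Prkar2a, a type II subunit that binds anchoring proteins, read 79.4, 27.5, 44.4 and 148. The 3 ranges did not meet, and Prkar2a was under the floor on 2 arrays. Prkacb, a catalytic subunit enriched in brain, read 4698, 4734, 3947 and 4293, and Prkaca, the broadly expressed one, read 1449, 2035, 2136 and 1746. Prkacb was the higher on each array, by 1.85 to 3.24 times. Prkar2b, the type II subunit of neurons, was not analysed here.

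**Figure D2:**
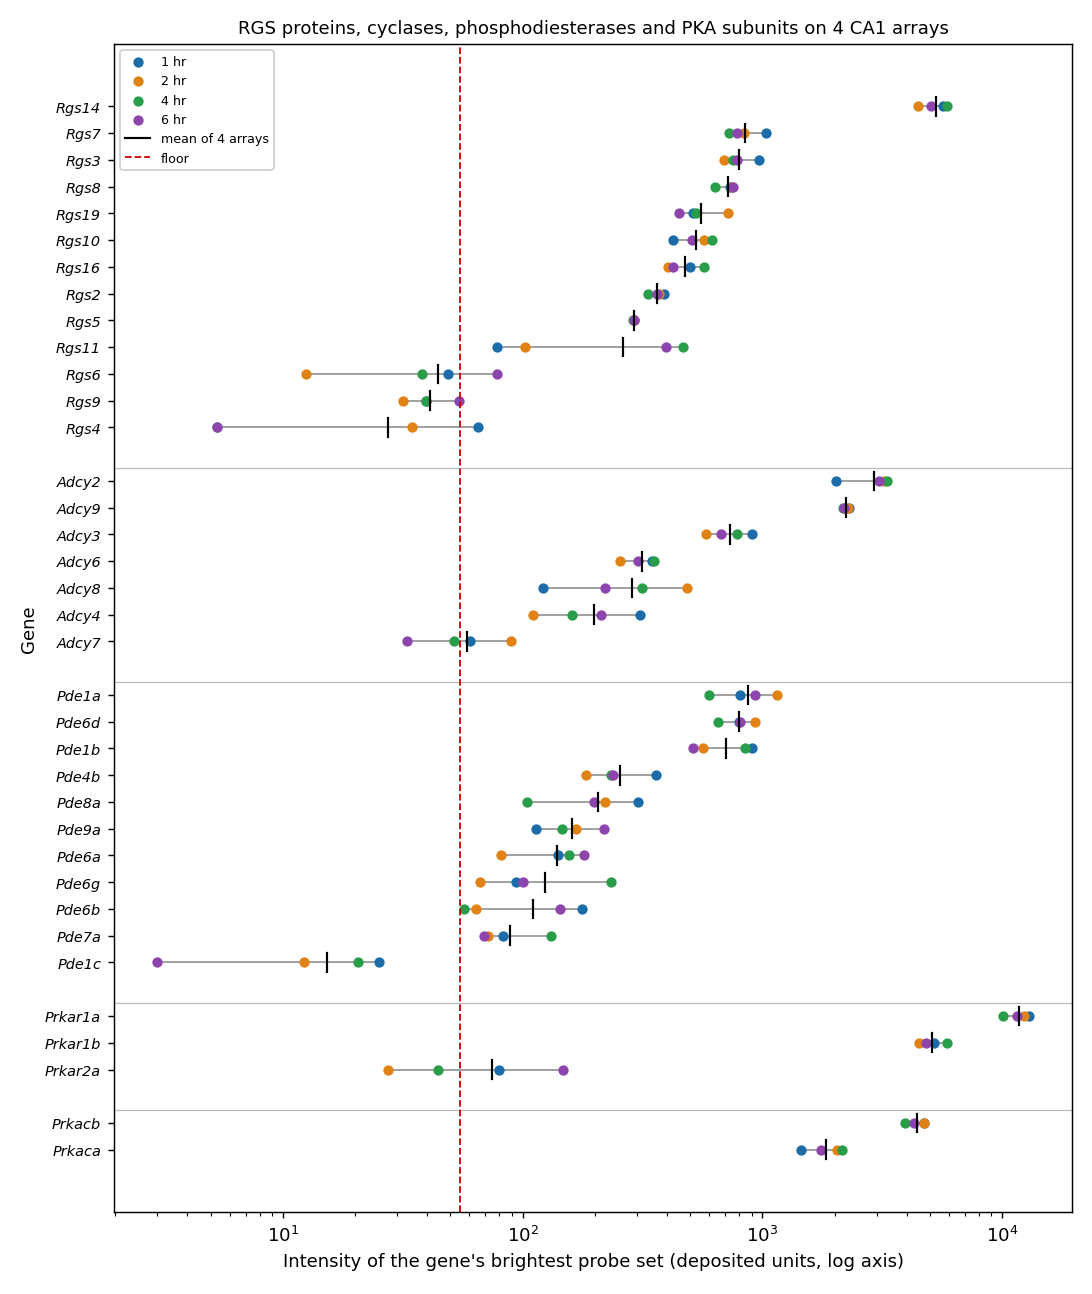
Intensity (deposited units, log axis) of the brightest probe set of each RGS, adenylyl cyclase, phosphodiesterase and PKA subunit gene, with 1 point for each of the 4 arrays, a grey line for their range, a black tick for the mean and a dashed line for the floor of 54.7. Rgs14, Prkar1a, Prkar1b and Prkacb are clear of their families, the 4 Rgs5 points fall on each other, and the ranges of Pde1a (596 to 1152) and Pde1b (514 to 904) overlap.

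Promoters of PKA genes are shown because cyclic AMP regulates genes through the cyclic AMP response element, TGACGTCA, or its core TGACG, which transcription factors of the CREB family, targets of PKA, bind. The windows are from RefSeq on GRCm38.p6 and run from 250 bases before to 50 after an annotated start. Windows were found for 48 of the 64 member genes. Of these 48 genes only Prkar1a held TGACGTCA (2.08%, where 2.54% of 17491 coding genes did). The core, searched on both strands and counted also where it lies inside the full element, was in 22 of 84 member windows, or 26.2%, where 23.6% of all 21262 windows of the same length held it. By gene it was in 18 of 48 members (37.5%) and in 26.2% of all coding genes, but members had 1.75 windows each and all genes 1.22. The 5 PKA genes have 17 windows, of which 7 held the core, at least 1 for each gene, and that of Prkar2a lay outside the bases before the start. The 250 bases before the start are printed for the brightest 3 PKA genes, 5′ to 3′ on the gene's strand, with the elements in capitals. They are chr11:109650699-109650948 on the + strand for Prkar1a, chr5:139150002-139150251 on the - strand for Prkar1b and chr3:146812947-146813196 on the - strand for Prkacb.
Prkar1a: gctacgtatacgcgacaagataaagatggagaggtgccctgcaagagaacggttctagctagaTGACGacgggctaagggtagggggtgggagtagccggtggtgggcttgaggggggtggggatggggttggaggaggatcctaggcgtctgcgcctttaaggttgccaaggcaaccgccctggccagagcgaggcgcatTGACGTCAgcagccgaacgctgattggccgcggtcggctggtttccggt
Prkar1b: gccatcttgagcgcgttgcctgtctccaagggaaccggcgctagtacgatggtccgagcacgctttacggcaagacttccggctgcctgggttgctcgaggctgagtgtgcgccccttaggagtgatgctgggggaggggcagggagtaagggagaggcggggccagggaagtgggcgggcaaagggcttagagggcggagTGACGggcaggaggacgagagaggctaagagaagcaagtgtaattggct
Prkacb: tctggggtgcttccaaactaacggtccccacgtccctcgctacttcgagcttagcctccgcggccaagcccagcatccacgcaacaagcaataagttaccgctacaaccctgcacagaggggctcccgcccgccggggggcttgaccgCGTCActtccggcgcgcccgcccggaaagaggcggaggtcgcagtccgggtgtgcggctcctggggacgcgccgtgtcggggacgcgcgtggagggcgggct
The capitals TGACGTCA of Prkar1a begin 49 bases before the start, and the core of Prkar1b also begins 49 bases before its start. That of Prkacb begins 102 bases before. Other windows of these genes, 5 for Prkar1a, 4 for Prkar1b and 2 for Prkacb, are not shown. A match is a description of letters and says nothing of binding, and with no array of raised cyclic AMP these data do not bear on its use.

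With each gene taken by its brightest probe set, 1 gene led on all 4 arrays in 6 of the 8 families: Gnas, Gnb1, Gng3, Rgs14, Prkar1a and Prkacb. The exceptions were the adenylyl cyclases and the phosphodiesterases. An exact two-sided test over 4 arrays in pairs cannot reach 0.05, so these orders have no test. Over all families there were 39 pairs of neighbours with both genes above the floor on all arrays. The ranges were apart in 16 and overlapped in 23, and in 3 of these 23, Gna11 over Gnai3, Gnb1 over Gnb2 and Rgs8 over Rgs19, the order nevertheless held on each array. Ranges of other genes were not compared, so these counts, and those by family above, have no background.

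Genes with several probe sets show how far intensity depends on the probes. The 20 such members had a median difference of 2.65 log2 units (6.30-fold) between their brightest and dimmest probe set, and 12 of 20 (60%) differed by over 2 log2 units. Over all 2073 genes with several probe sets the median was 1.66 (3.16-fold), and 42.3% differed by that much. A difference from a probe set under the floor on any array is a lower bound. The largest were Gnas and Gnao1. The other Gnas probe sets read 137, 82.7, 178 and 34.5, and 88.7, 36.6, 21.6 and 32.3, in time order, against 35368 or more for the first. The annotation does not say which of the several transcripts of this imprinted locus each detects. Gnasas1, the antisense RNA of the locus, was above the floor on 1 array, at 68.2 at 1 hr.

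Gnao1 had 5 probe sets. Behind the first, at 16433 ± 2650 (SD, n = 4), came 1 at 629, 735, 744 and 743 in time order and 1 at 737, 576, 649.8 and 665. A further one was above the floor only at 1 and 2 hr, and the last lay between 11.8 and 25.9. The Go subunit was thus read at levels from under the floor to among the brightest, depending on the probe set.

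Gnb1 read 1525, 753, 1010 and 1796 through another probe set and 122, 230, 292 and 202 through the dimmest, both below its first on each array. Gnai2 through its second probe set read 5908, 4246, 4356 and 5189. The other Gnai1 probe set read 207, 237, 158 and 349, and the other Gna12 one read 76.8, 19.6, 83.1 and 22.9. On the mean of floored log2 values these readings were 13.8-fold below the first of Gnai1 and at least 15.2-fold below that of Gna12, since the dim Gna12 probe set was under the floor on 2 arrays.

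Among the rest, the differences were smaller or the dim reading was near the floor. The other Gna11 probe set read 176, 425, 495 and 264, and the other Gng12 one read 216, 115, 275 and 121. Rgs10 read 423, 569, 617 and 510 through its first, 513, 327, 441 and 391 through its second, and 61.0, 37.6, 11.3 and 10.2 through the dimmest. Rgs19 read 514, 719, 526 and 448 through its first and 442, 392, 390.0 and 448 through its second, and Pde4dip read 1284, 1402, 1273 and 1379 through its first and 27.9 or less through the other. A dim probe set of Gna12, Rgs10, Rgs11, Rgs19, Gng11, Pde6b or Pde4dip under the floor on 2 or more arrays thus stood beside one of the same gene that was above it on all 4. A difference of several fold between 2 isoforms, each seen through 1 probe set, is within what probe sets of a single gene showed.

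**Figure D3:**
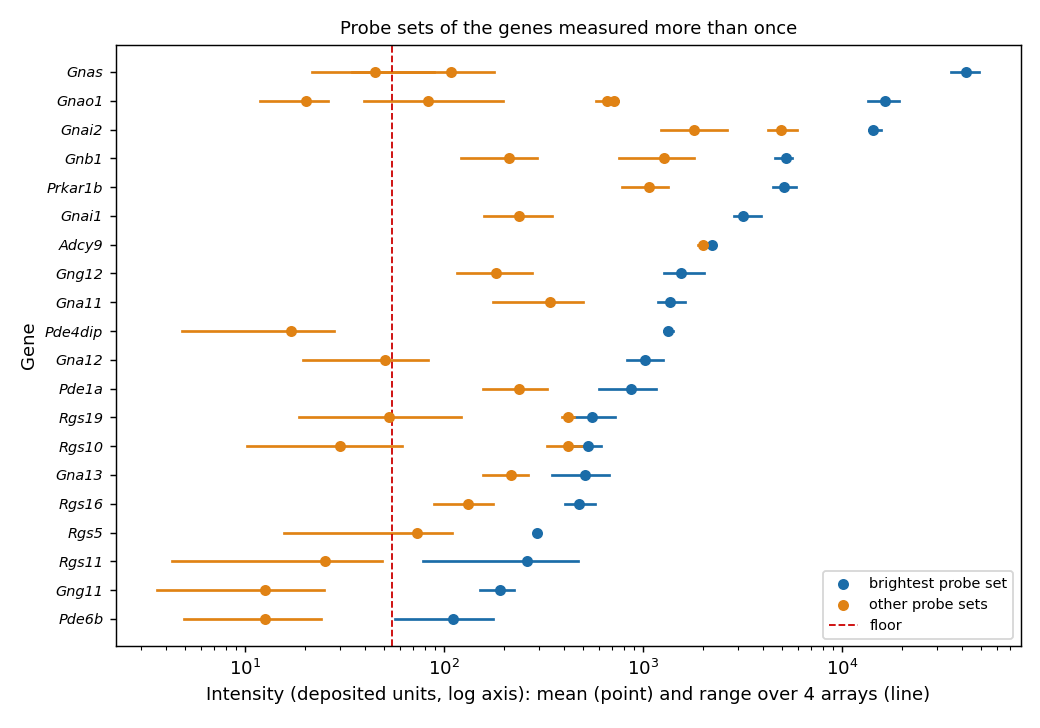
Intensity (deposited units, log axis) of every probe set of the 20 member genes with more than 1, as the mean (point) and range (line) over 4 arrays, with the brightest in blue, the others in orange and a dashed line for the floor of 54.7. Gnas and Gnao1 span the widest distances, and the Adcy9 pair lies closest together.

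Probe sets of a gene did not often share their pattern over arrays. In 13 member genes the brightest pair of probe sets was above the floor on all arrays. Both were highest on the same array in 4 of them (30.8%), namely Gna11, Gna13, Gnai2 and Prkar1b, and over 943 genes of all kinds the share was 29.7%. Both were lowest on the same array in 1 of 13, against 29.7% of all genes. The share for the highest array is that of all genes, and member genes outside these 13 allowed no such comparison.

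The 61 member probe sets whose mean log2 value was above the 40th percentile, the ones tested, had a median SD of 0.24 log2 units, and all 7453 tested had 0.29. Of 4 equal groups by level, the brightest lay above 998, and its medians were 0.19 for 25 members and 0.18 for all. In the next group down they were 0.23 for 14 members and 0.24 for all, and between 229 and 451 they were 0.25 for 8 members and 0.33 for all. In the dimmest group, from 114 to 229, they were 0.49 for 14 members and 0.54 for all. Members were brighter than the rest, and 25 of 61 lay in the brightest group. By family the median ran from 0.16 for PKA regulatory subunits through 0.22 for RGS and 0.23 for alpha subunits to 0.41 for phosphodiesterases. The first rests on 3 bright probe sets and the last on 8 of a dim family, and these medians are not matched for level.

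Among the 61 probe sets tested, the steadiest after Rgs5 were the brightest of Adcy9 (SD 0.04 log2 units), Gnb2 (0.07), Pde4dip (0.07), the second of Adcy9 (0.09), Rgs2 (0.09) and the brightest of Gnai2 (0.09). Of those tested Rgs11, Gng2 and Adcy8 spread most, with 1.32, 0.88 and 0.85 log2 units. The next 4, between 0.62 and 0.68, were the second probe sets of Gna11 and Gng12 and the only ones of Pde8a and Adcy4. All of these were dim, with means from 182 to 340.

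**Figure D4:**
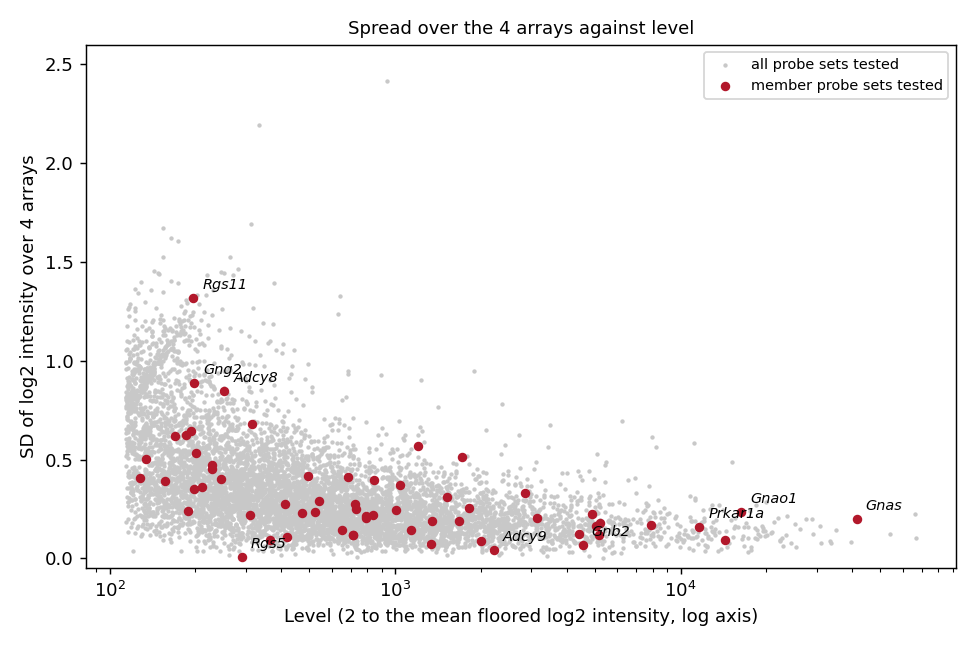
SD of log2 intensity over the 4 arrays (vertical) against level (horizontal, log axis) for the 61 member probe sets tested (red) and all 7453 tested (grey). Spread falls with level for both, Rgs11 lies highest among members at 1.32, and Rgs5 lies lowest at 0.01.

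No member passed the test of a straight line over time. In limma's test with Benjamini-Hochberg adjustment 0 of 61 members passed, where 0.0% of the 7453 probe sets tested did. At an unadjusted p under 0.05 there was 1 member (1.64%, background 5.13%), and ordinary least squares gave 0 members at that level and 333 probe sets in all. The member was Rgs11, which read 78.4, 103, 468 and 396 at 1, 2, 4 and 6 hr. Both later values were above both earlier ones. Its slope was 0.53 ± 0.13 (SE) in log2 units per hr, with a limma adjusted p = 0.884. Its second probe set lay under the floor on all arrays. Prkar1b through its second probe set, at 785, 889, 1334 and 1253, and Pde1a through its second, given above, came next (limma adjusted p = 0.972 for both). The brightest Prkar1b probe set was not in that order. Of 61 slopes 30 were above 0, with a median of 0.00, and 3792 of all 7453 were.

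With 1 array at each time, a probe set was counted as apart when a single array exceeded the other 3 by 2-fold or more, or lay that far under them, after values under the floor were set to it. Among the members tested 1 was apart, Gng2, where 7.53% of all probe sets tested were. Its value of 79.2 at 4 hr lay 3.15-fold below the next lowest, and it has no second probe set. Leaving out an array leaves fewer values to differ from, and the count was then 4 without 1 hr, 3 without 2 hr, 4 without 4 hr and 5 without 6 hr. The share of all probe sets was not taken with an array left out, so these counts have no background. Without the filter on level 9 of 92 members were apart (9.78%), where 9.56% of all probe sets were. The members' share is near that background.

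Of those 9, 6 were apart on the 4 hr array. Above the others at 4 hr were Gnb3 (81.7, 51.5, 242 and 46.5 in time order, 2.96-fold), Gnb4 (42.4, 56.9, 164 and 35.5, 2.88-fold), Pde6g (94.0, 66.7, 234 and 100.3, 2.33-fold) and the dimmest Rgs19 probe set (28.0, 43.4, 122 and 18.6, at least 2.22-fold). That is 4 of 92, where 1.58% of all probe sets were above at 4 hr. Below at 4 hr were Gng2 and Gnaz, the latter at least 2.04-fold, where 0.789% of all were. All 6 were dim, with means of 221 or less. The other Rgs19 probe sets, at 526 and 390.0 at 4 hr, were not apart. Of cell type markers, choroid plexus genes summed to 3808 at 4 hr and to 763 to 790 on the other arrays, which Ttr set alone (3217 at 4 hr and 140 to 196 otherwise), while Aqp1, Folr1 and Kl at 4 hr lay within the range of the other arrays. Its part in these values was not tested.

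The other 3 were apart on other arrays. Gna15, a phospholipase class subunit of blood cells, read 167 at 1 hr and 63.7, 10.9 and 29.3 later, 2.63-fold above the next. A dim Gnao1 probe set read 196 at 1 hr and 56.7, 39.9 and 39.6 later, a 3.47-fold gap, while the brightest, 19197 at 1 hr and 18077 at 6 hr, had none. Above the others at 1 hr were 2.01% of all probe sets. Gnat2 read 158 at 6 hr and lay under the floor on the other arrays, at least 2.89-fold apart, where 1.38% of all were above at 6 hr. Photoreceptor markers summed to 925 at 6 hr and 515 to 687 on the other arrays. Most of that difference lay in Crx, at 459.9 at 6 hr and 121.5 to 223.1 otherwise. Pdc read 243.5 at 6 hr and 142.3 to 226.9 otherwise. Nrl, Prph2 and Sag were not highest at 6 hr, and Rcvrn and Rom1 were under the floor throughout. The part of this sum in the Gnat2 value was not tested.

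**Figure D5:**
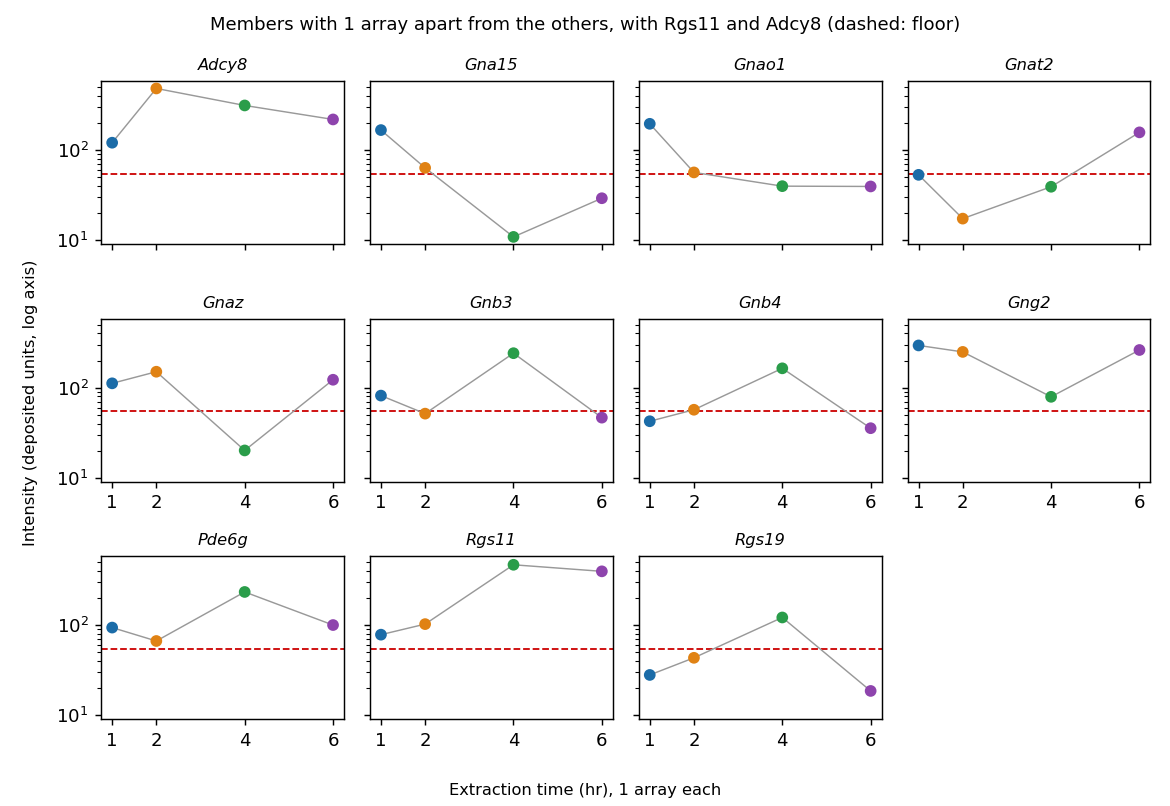
Intensity (deposited units, log axis) against extraction time (hr, 1 array each) for the 9 member probe sets with 1 array at least 2-fold from the others, and for Rgs11 and Adcy8, the tested members of largest spread besides Gng2. The dashed line is the floor of 54.7. The Gnao1 and Rgs19 panels show dim probe sets of genes with a brighter one, and 6 of the 9 have the 4 hr array apart.

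Other genes of the cascade, from a list of 64 symbols, were represented by 33. Of these 24 were above the floor on all arrays and 3 on none, and 0 of the 21 tested passed limma's adjusted test, with 2 at an unadjusted p under 0.05 (background 5.13%). Plcb1, the phospholipase C that Gq class subunits activate, averaged 2024 ± 235, and Hcn2, a channel opened by cyclic nucleotides, 1951 ± 298 (SD, n = 4). The PKA inhibitors Pkia and Pkig averaged 1348 ± 47.8 and 1247 ± 179 (SD, n = 4). On the list 3 of 33 genes were apart, near the 9.56% of all probe sets: Gpsm1, a regulator of inhibitory alpha subunits, at 173 at 1 hr and 62.5 or less later, and Kcnj6, a potassium channel opened by beta and gamma subunits, and Gucy2e, a guanylyl cyclase of photoreceptors, both low at 2 hr, at 72.3 and under the floor. The median SD of the tested genes was 0.31 log2 units, above the 0.24 of members and near the 0.29 of all.

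Several members lie next to each other in the genome, by the order of coding genes in RefSeq GRCm38.p6, and neighbours often differed in brightness. Other adjacent genes were not compared, so these pairs have no background. Gnai3 and Gnat2 are adjacent and averaged 1144 and 67.0. Gnai2 and Gnat1 have 1 coding gene between them and averaged 14301 and 43.0. Gna11 and Gna15 (1362 and 67.8) and Gnaq and Gna14 (202 and 28.2) are adjacent pairs of the phospholipase class. In each of these 4 pairs 1 gene was above the floor on all arrays and the other on 2 or fewer. Among RGS genes Rgs5 and Rgs4 (291 and 27.6) differed likewise, while the adjacent Rgs8 and Rgs16 (716 and 475) were both measured on all arrays. Rgs9 and Gna13 (41.2 and 512) were the only adjacent pair from different families.

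In windows around their starts, member genes measured on all arrays were richer in CG dinucleotides than the others. The median ratio of observed to expected CG was 0.71 over 69 windows of 38 such genes, 0.45 over 15 windows of 10 other member genes, and 0.57 over all windows of coding genes. The median GC content was 60.3%, 57.0% and 56.3% in the same order. Windows of a gene overlap in part and are not independent, and this difference has no test. The same split was not made over all genes, so whether it is particular to members is unknown.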

How the data were processed

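CA1 expression was measured on 4 single-channel arrays. Each holds 1 intensity for every one of 12488 probe sets, linear as deposited by the authors. Neither the software nor the scaling is stated in the labels. With 2% trimmed at either end each array averaged 500.3, so a common scale had been applied, which hides any change that most genes share. Detection calls were not used. Precision is limited by the number of arrays.

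Names came from the platform annotation, where 10833 probe sets had 1 symbol, 396 several and 1193 none, beside 66 controls that were not used. All 64 member genes matched RefSeq by Entrez identifier. Values under 54.7 were set to that floor before log2. The 7453 probe sets with a mean above the 40th percentile were fitted with a line over hours in limma 3.58.1 (R 4.3.3), with 2 residual degrees of freedom and a Benjamini-Hochberg threshold of 0.05. The fit was checked on simulated data. At most 15 values were identical between a pair of arrays. The limma p-values set each slope against the scatter of arrays around its line, with the variance drawn toward that of all probe sets tested. Since nothing says that arrays hold separate animals, this scatter may be technical.

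A gene is given by its probe set of highest mean. Values on every array are given for the 3 brightest genes of a family, members apart on 1 array, the 3 of smallest p, probe sets of 1 gene over 2 log2 units apart, and isoforms of 1 subfamily. Members and lists were chosen with earlier results of these data known, and promoter motifs, neighbour pairs and within-array ratios after values were seen. Alternatives were other normalizations, floors, filters, time scales, variance models and each array left out.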

Additional observations from a re-analysis of the deposited data

How the results depend on the processing

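The count of probe sets with a time trend past the threshold was 0 under all 14 alternatives, for members and for all probe sets, with 0 to 3 members and 229 to 782 probe sets at an unadjusted p under 0.05. The number of members above the floor on all arrays ran from 51 to 76 with floors at the 40th and 10th percentile. Under all 9 alternatives 6 or 7 families had 1 brightest gene, but the count of families does not ask for the same gene each time. When the probe sets of a gene were averaged on the log2 scale, Gnai2, Gnai3, Gnai1 and Gna11 had higher means than Gnas. In the same way Gnb2 had a higher mean than Gnb1. The count of members apart on 1 array, 1 as reported, was 2 under quantile normalization and 2 with the floor at the 10th percentile. It was 9 with no filter on level and 0 with a filter at the 60th percentile. It was 8 when 1.5-fold was enough, and 3 to 5 when an array was left out. The share of all probe sets was taken only as reported and with no filter, so the other counts have no background. The median SD of members, 0.24, was 0.29 after a shift to a common median, 0.21 with a filter at the 60th percentile, and 0.22 to 0.27 when an array was left out. No paired analysis was possible because each time has 1 array. A floor without detection calls limits what can be said of the 28 member probe sets not above it on all arrays.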
